A study of Homo sapiens with 44 samples.

Results

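CCL11 and CCL26 are 2 of the 3 human eotaxins, and their transcripts were followed through 11 groups of Ccd18-Co cells, an established colon fibroblast line. Both were found as row symbols among the 40663 symbols of the count table, and both were among the 9513 genes with enough counts to be tested. They were chosen by an earlier reading of these same libraries, in which CCL11 was the only gene called with IL-6 and CCL26 was already known to rise with IL-13, so the IL-6 values of both genes and the IL-13 value of CCL26 are given as descriptions with no test. The cells were starved of serum for 72 h and then kept for 24 h without stimulation or with 1 recombinant cytokine. Every cytokine was used at 10 ng/ml (TNF, OSM, IL-6, IL-13, IL-22, IL-17A, TGF-β1, IFNγ and IFNα), except IL-1β at 0.1 ng/ml, with 4 libraries in every group. All groups shared the line, the starvation and the serum-free medium, and a single line stands for colon fibroblasts in general only as far as that line goes.

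Eotaxins are secreted CC chemokines that attract eosinophils and basophils through the receptor CCR3. Stromal cells and epithelium of the gut make them, and the type 2 cytokines IL-4 and IL-13 are their classical inducers, acting through IL-4Rα with IL-13Rα1 and the transcription factor STAT6. CCL24 is the remaining eotaxin, and IL-13Rα2 is a further IL-13 receptor often described as a decoy.

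Total estimated counts per library ran from 742173 to 2213424, so that 3 counts, the floor used here, corresponded to between 1.39 and 3.85 CPM (counts scaled to a common effective library size). All 10 fibroblast markers examined lay above the floor in every group. The summed level of 4 endothelial markers reached at most 2.65 CPM in any library, that of 6 epithelial markers at most 28.4 CPM, and PTPRC, CD3E and the other leukocyte markers together at most 73.8 CPM, with CD68 the only one of the 7 that had enough counts to be tested. Of 4 smooth muscle markers, which fibroblasts can share, DES had 0 counts in the unstimulated and IL-13 libraries, and the sum, mostly ACTA2, ran from 79.0 to 1347.3 CPM. In bulk RNA, fewer expressing cells and less RNA per cell cannot be told apart. Nothing in the labels says that the 4 libraries of a group came from separate cultures, so p-values measure the spread between these libraries, which may be technical.

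CCL11 lies on chr17:34285742-34288334 (GRCh38, plus strand) and has 1 annotated transcript of 3 exons and 1005 bases. CCL2, CCL7 and CCL8 lie in the same chemokine cluster, 28533, 13499 and 31100 bases away. CCL26 lies on chr7:75769533-75789896 (minus strand), 20928 bases from CCL24. It has an annotated transcript of 3 exons and 475 bases and another of 4 exons and 703 bases, which starts further upstream.

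In unstimulated cells CCL11 was a clearly detected transcript, at 91.6, 66.3, 64.0 and 72.4 CPM in replicates 1 to 4 (73.6 ± 12.5 CPM, mean ± SD, n = 4). CCL26 was at the edge of detection, with 1, 5, 1 and 0 counts in the same libraries, or 7 counts in all. The fibroblasts therefore carried one eotaxin transcript at rest above the floor and another under it. CCL24 had 0 counts in all 44 libraries, and CCR3, the receptor, reached at most 1 count in any library.

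**Figure D1:**
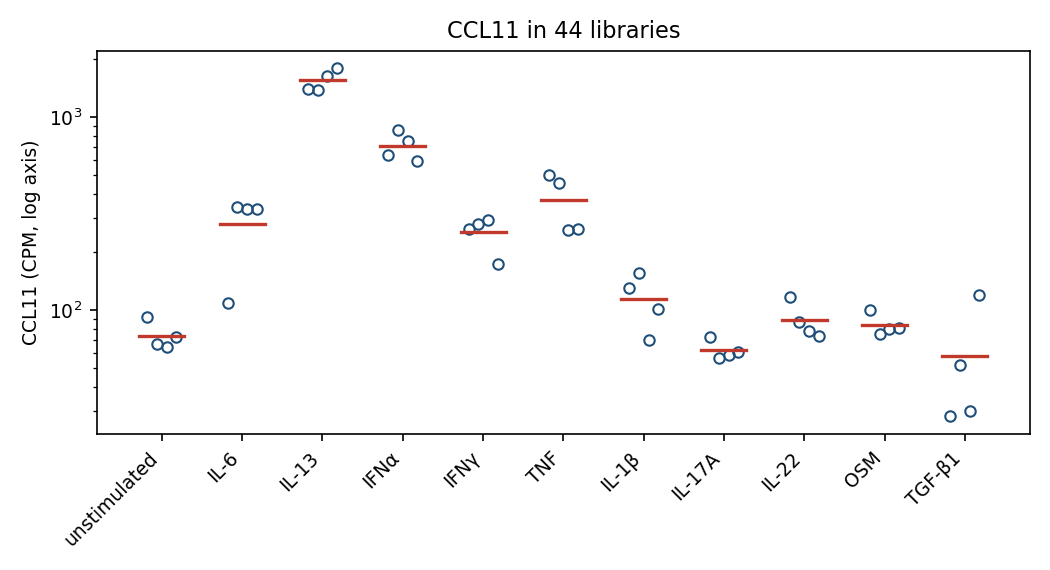
CCL11 in each of the 44 libraries, in CPM on a log axis, by group (circles, replicates 1 to 4 from left to right; red line, group mean). The 4 IL-13 libraries lie between 1383.6 and 1796.4 CPM, above every other library, and 1 IL-6 library lies at 109.0 CPM while the other 3 lie at 333.5 to 343.3 CPM.

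CCL11 rose with IL-13, IFNα, TNF and IFNγ. With IL-13 it reached 1392.7, 1383.6, 1629.2 and 1796.4 CPM. All 4 libraries lay above all 4 unstimulated ones, as 4.54% of tested genes did. They also lay above every library of the other cytokines, for which no share over all genes was computed. The mean of 1550.5 ± 199.5 CPM was 21.1-fold that of unstimulated cells (log2 fold change 4.39, SE 0.33, adjusted p = 1.9e-13, edgeR quasi-likelihood test with Benjamini-Hochberg adjustment, as for all adjusted p-values here). Calls required a log2 fold change beyond 1.5 in either direction and an adjusted p-value under 0.05, and by this rule 0.273% of all tested genes were higher with IL-13, or 26 genes. Ordered by log2 fold change, CCL11 was the third of these 26, behind CCL26 and POSTN (periostin, a matricellular protein of activated fibroblasts). The place of CCL26 among the 26 is a description and no support for its rise, which was known beforehand. ACTA2, an actin of smooth muscle and activated fibroblasts, was at 1052.6 ± 242.7 CPM with IL-13 and 524.4 ± 272.7 CPM at rest, with overlapping ranges, and the 4 smooth muscle markers together ran from 791.2 to 1347.3 CPM with IL-13 and from 256.8 to 892.6 CPM at rest. Their part in the CCL11 level was not tested.

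IFNα, a type I interferon, gave 633.7, 855.3, 757.1 and 593.5 CPM of CCL11 (709.9 ± 119.3 CPM). These libraries lay below all IL-13 libraries and above all TNF libraries. The log2 fold change against unstimulated cells was 3.26 (SE 0.32, adjusted p = 5.02e-11), in a comparison in which 2.46% of genes were called higher, and CCL11 stood at position 97 of those 234 genes. The 7 leukocyte markers summed to 36.7 to 73.8 CPM in the IFNα libraries, 9.14 to 22.1 CPM with IFNγ and 0 to 9.30 CPM at rest. Nearly all of this was CD68, at 59.1 ± 16.7, 13.9 ± 5.10 and 2.87 ± 3.32 CPM, while PTPRC, CD3E, CD14, MS4A1 and CLC had 0 counts in every IFNα library.

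With TNF, CCL11 was at 502.0, 453.9, 261.1 and 263.5 CPM, a mean of 370.1 ± 126.0 CPM. Replicates 1 and 2 were well above replicates 3 and 4, and all 4 were above the unstimulated range, as they were for 6.73% of tested genes. The log2 fold change was 2.32 (SE 0.31, adjusted p = 2.93e-07), with 1.85% of genes called higher.

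IFNγ gave 263.6, 278.3, 294.8 and 173.7 CPM of CCL11 (252.6 ± 54.1 CPM), again above all unstimulated libraries, as 6.07% of tested genes were. The log2 fold change was 1.77 (SE 0.31, adjusted p = 3.95e-05). Here 2.4% of genes were called higher and CCL11 was at position 200 of 228, so its rise with IFNγ was among the smaller ones called.

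With IL-6, whose effect on CCL11 was used to choose the gene, the 4 libraries held 109.0, 343.3, 333.5 and 334.5 CPM (280.1 ± 114.1 CPM). Replicate 1 lay just above the highest unstimulated library (91.6 CPM), while replicates 2 to 4 lay close to each other. The fitted log2 difference was 1.92 (SE 0.31), and 2.20 without IL-6 replicate 1. CCL11 was the 1 gene called in that comparison, 0.0105% of those tested. This call is how the gene was chosen and adds no support to its rise. Of all tested genes, 1.02% had all 4 IL-6 libraries above all 4 unstimulated libraries. The genes next in order of p were IFI16, an interferon-inducible nuclear protein, with a log2 difference of 0.53 (SE 0.15), and EXOC6, a vesicle-tethering subunit, with -1.26 (SE 0.38).

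The other 5 cytokines gave CCL11 levels that overlapped with those of unstimulated cells. IL-1β gave 129.7, 156.4, 69.9 and 101.8 CPM (114.4 ± 37.1 CPM), a log2 difference of 0.63 with a 95% interval from 0.02 to 1.24 (adjusted p = 0.269). The means were 88.5 ± 19.3 CPM with IL-22, 84.2 ± 11.2 CPM with OSM and 61.8 ± 7.21 CPM with IL-17A. Their adjusted p-values were 0.842, 0.847 and 0.841, and the 95% intervals of the log2 difference ran from -0.36 to 0.89, from -0.43 to 0.81 and from -0.88 to 0.38, so changes past 1.5 on the log2 scale lay outside all 3 intervals.

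The TGF-β1 libraries disagreed with each other, at 28.1, 52.1, 29.9 and 120.4 CPM of CCL11 (57.6 ± 43.2 CPM). Replicates 1 to 3 lay below all unstimulated libraries and replicate 4 above them. The log2 difference was -0.34 (95% interval -0.98 to 0.30, adjusted p = 0.625). Without TGF-β1 replicate 4 it was -0.995 with an adjusted p of 0.0345, which is still short of the fold threshold. CXCL10, an interferon-induced chemokine looked up after these values were seen, also varied among the TGF-β1 libraries, at 3.12, 74.4, 91.6 and 165.1 CPM, against 0 to 6.15 CPM in unstimulated cells. Its part in the CCL11 values was not tested.

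From the highest to the lowest mean, CCL11 was ordered IL-13, IFNα, TNF, IL-6, IFNγ, IL-1β, IL-22, OSM, unstimulated, IL-17A and TGF-β1. Neighbours in this order did not overlap in 3 places only, between IL-13 and IFNα, between IFNα and TNF, and between IFNγ and IL-1β. The order was taken from these same values, and the share of all genes without such overlap was not computed, so this is a description. The ranges of TNF, IL-6 and IFNγ overlapped, and IL-6 replicate 1 (109.0 CPM) also lay within the IL-1β range.

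**Figure D2:**
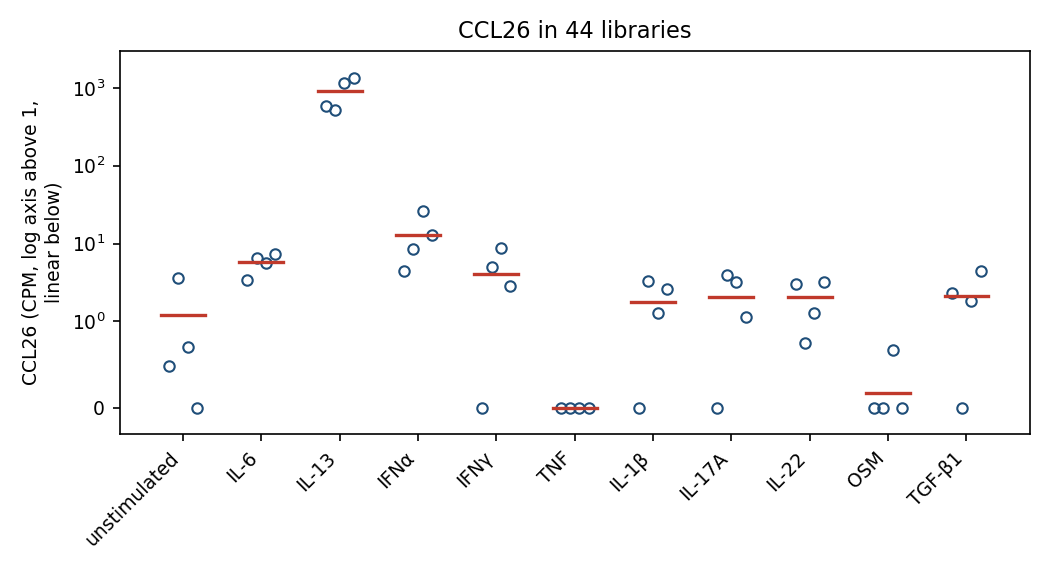
CCL26 in each of the 44 libraries, in CPM on an axis that is logarithmic above 1 and linear below (circles, replicates 1 to 4 from left to right; red line, group mean). The IL-13 libraries lie between 519.6 and 1356.9 CPM, no other library exceeds 26.2 CPM, and all 4 TNF libraries are at 0.

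CCL26 was highest with IL-13. Known beforehand, and therefore given without a test, its counts with IL-13 were 884, 673, 2025 and 1528, or 586.8, 519.6, 1168.6 and 1356.9 CPM (908.0 ± 417.7 CPM). Replicates 3 and 4 held more CCL26 than replicates 1 and 2. Pooled over libraries and scaled by depth, the 5110 counts with IL-13 were 812 times the 7 counts of unstimulated cells. The exact 95% counting interval, 394 to 2022, covers counting error only, not the spread between libraries, and is no test. Of the 7 unstimulated counts 5 came from replicate 2.

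With IFNα the CCL26 counts were 8, 13, 33 and 21, or 4.41, 8.56, 26.2 and 13.1 CPM. All 4 libraries lay above the highest unstimulated library (3.65 CPM), as 7.98% of tested genes did in this comparison. The log2 fold change was 3.39 (SE 0.73, adjusted p = 0.000856), and the pooled counts, 75 against 7, gave a ratio of 10.9 with a counting interval from 5.03 to 28.0. The size rested on few counts, at 2.85 without IFNα replicate 3 and 4.70 without unstimulated replicate 2. The labels give replicates 1 and 2 and replicates 3 and 4 no separate meaning, but fitted apart they gave 1.79 (adjusted p = 0.482) and 5.49 (adjusted p = 3.36e-05), so the call was lost in replicates 1 and 2 alone. CCL26 passed the filter on low counts with and without the IL-13 libraries, but not in the unstimulated and IFNα libraries alone. With all 23518 genes of any count tested, the log2 fold change was 3.38 and the call was kept.

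IFNγ gave 0, 6, 10 and 4 counts of CCL26, a log2 difference of 1.75 (SE 0.90, 95% interval -0.07 to 3.57, adjusted p = 0.24). These libraries overlapped with the unstimulated ones, and the 20 pooled counts gave a ratio of 3.54 with a counting interval from 1.44 to 9.90. With all genes of any count tested it was called (1.75, adjusted p = 0.0475). IL-6 gave 6, 10, 9 and 12 counts, described without a test, and 3 of these 4 libraries lay above the unstimulated range. Their 37 pooled counts were 5.11 times the unstimulated level. The counting interval, 2.25 to 13.6, leaves out the spread between libraries and is no test.

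In the remaining groups CCL26 averaged no more than 3 counts per library, and no fitted fold is given. IL-1β, IL-17A, IL-22 and TGF-β1 had 11 counts each over their 4 libraries, OSM had 1 and TNF had 0. A count of 0 in every TNF library allows up to 1.61 to 2.58 CPM, depending on the library. The pooled ratio of TNF to unstimulated cells had an upper counting limit of 0.757, and that of OSM ran from 0.0033 to 1.16. These limits leave out the spread between libraries and are no test of a fall. Of the 7 unstimulated counts 5 came from replicate 2. In these same TNF libraries CCL11 averaged 370.1 CPM.

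Set against each other directly, TNF gave more CCL11 than IL-1β (log2 difference 1.69, SE 0.30, adjusted p = 0.000619), where 0.179% of genes were called higher with TNF. Both are inflammatory cytokines that act through NF-κB, but the dose of IL-1β was a different one (0.1 against 10 ng/ml). The dose is that of the labels and the methods, and a legend of the study gives a lower one for these cells. IFNα gave more CCL11 than IFNγ, with an adjusted p of 0.000375 and a log2 difference of 1.49 (SE 0.29) that fell just short of the threshold of 1.5, in a comparison with 1.68% of genes called higher. Leaving out IFNα replicate 1 or 4 or IFNγ replicate 2 or 3 moved this difference to between 1.53 and 1.58, past the threshold. For CCL26 the difference between the interferons was 1.64 (SE 0.61, adjusted p = 0.0852). It passed with all genes of any count tested (1.63, adjusted p = 0.0012), and without IFNα replicate 1 (1.94) or IFNγ replicate 3 (2.25). IL-13 and TGF-β1, a type 2 and a fibrogenic cytokine, differed by 4.73 in CCL11 (SE 0.34, adjusted p = 1.32e-14), with 2.08% of genes called higher with IL-13. OSM and IL-6 share the receptor chain gp130 (IL6ST), and CCL11 was lower with OSM by a log2 difference of -1.73 (SE 0.30), given without a test.

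Per length, CCL11 at rest was at 73.2 CPM per kilobase and CCL26 at 1.72 CPM per kilobase of its longer transcript. With IL-13 the means were 1542.8 ± 198.5 and 1291.6 ± 594.2 CPM per kilobase, or 1911.6 for CCL26 if all its counts came from the shorter transcript. Within the IL-13 libraries, CCL26 per kilobase of the longer transcript was 60.2%, 53.7%, 102.5% and 108.0% of CCL11 in replicates 1 to 4, and 89.1%, 79.5%, 151.8% and 159.8% if the shorter transcript is used. With either transcript, CCL26 per length was therefore below CCL11 in replicates 1 and 2 and above it in replicates 3 and 4. Only the order of the group means depended on the transcript. POSTN divided the same way, at 6071.4 and 6169.0 CPM in replicates 1 and 2 and 10310.6 and 10767.0 CPM in replicates 3 and 4. Over the 11 groups, replicates 3 and 4 both lay above replicates 1 and 2 in 2 groups for CCL26, 1 group for CCL11 and 6 groups for POSTN, against a median of 2 groups over all tested genes. They both lay below in 0 groups for CCL26, 3 groups for CCL11 and 1 group for POSTN, also against a median of 2. The part of this division in the CCL26 level was not tested.

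The chemokine genes beside CCL11 were called with IFNα, IFNγ and TNF, as CCL11 was, and also with IL-1β and IL-17A. CCL2, CCL7 and CCL8 attract monocytes and, for CCL7 and CCL8, also bind receptors used by eosinophils. Of 5 listed neighbours on chromosome 17 these 3 had enough counts. They were called in 11 of 30 gene and cytokine pairs, all higher, beside 1.94% of pairs over all tested genes in either direction. With IFNα and IFNγ all 3 were called, where 2.46% and 2.4% of tested genes were called higher. With TNF and IL-1β CCL2 and CCL7 were (1.85% and 1.47% of tested genes), and with IL-17A CCL7 was (0.242%).

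CCL2 rose from 305.2 ± 103.3 CPM to 5873.9 ± 203.5 CPM with IL-1β (log2 fold change 4.27, SE 0.28, adjusted p = 9.89e-16), in a comparison with 1.47% of genes called higher and no call for CCL11. With IL-13, where CCL11 was highest, CCL2 was at 373.7 ± 37.4 CPM (0.29, SE 0.25, adjusted p = 0.652), CCL7 at 9.70 ± 4.76 CPM (-0.33, SE 0.62, adjusted p = 0.875) and CCL8 at 11.6 ± 3.32 CPM (1.47, SE 0.63, adjusted p = 0.215). Whether CCL11 and its neighbours differ in their response was not tested as such. CCL8 had its highest mean with IFNγ, at 318.2 ± 170.1 CPM against 4.24 ± 4.45 CPM at rest (6.26, SE 0.59, adjusted p = 2.59e-11), and CCL7 with TNF, at 335.1 ± 35.5 CPM against 12.4 ± 11.8 CPM (4.78, SE 0.53, adjusted p = 5.11e-09). CCL7 and CCL8 were higher in both replicates 3 and 4 than in replicates 1 and 2 in 7 of the 11 groups, which 0.915% of tested genes were in 7 or more.

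With IL-6, CCL2 stood at 241.5, 420.5, 526.5 and 633.4 CPM against 203.7 to 438.5 CPM in unstimulated cells. The lowest of these was replicate 1, the library that was also lowest for CCL11. Replicate 1 was the lowest for CCL2 in unstimulated cells and with IFNα, IFNγ, OSM and TGF-β1 too. CCL2 was higher in both replicates 3 and 4 than in replicates 1 and 2 in 6 of the 11 groups, and lower in 2. With IL-6, CCL7 and CCL8 overlapped with the unstimulated libraries as well, at log2 differences of 0.60 (SE 0.56) and 0.55 (SE 0.66).

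Of the wider eotaxin axis, a list of 14 ligands, receptors and processing enzymes, 3 genes had enough counts, namely CCL7, CCL8 and DPP4. DPP4, a membrane peptidase that trims and inactivates CCL11, fell by 1.97 on the log2 scale with TGF-β1 (SE 0.32, adjusted p = 4.33e-05), from 85.9 ± 30.8 to 22.0 ± 12.5 CPM, where 1.06% of genes were called lower. With IL-13 its level was 156.7 ± 15.2 CPM (0.87, SE 0.29, adjusted p = 0.0798).

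**Figure D3:**
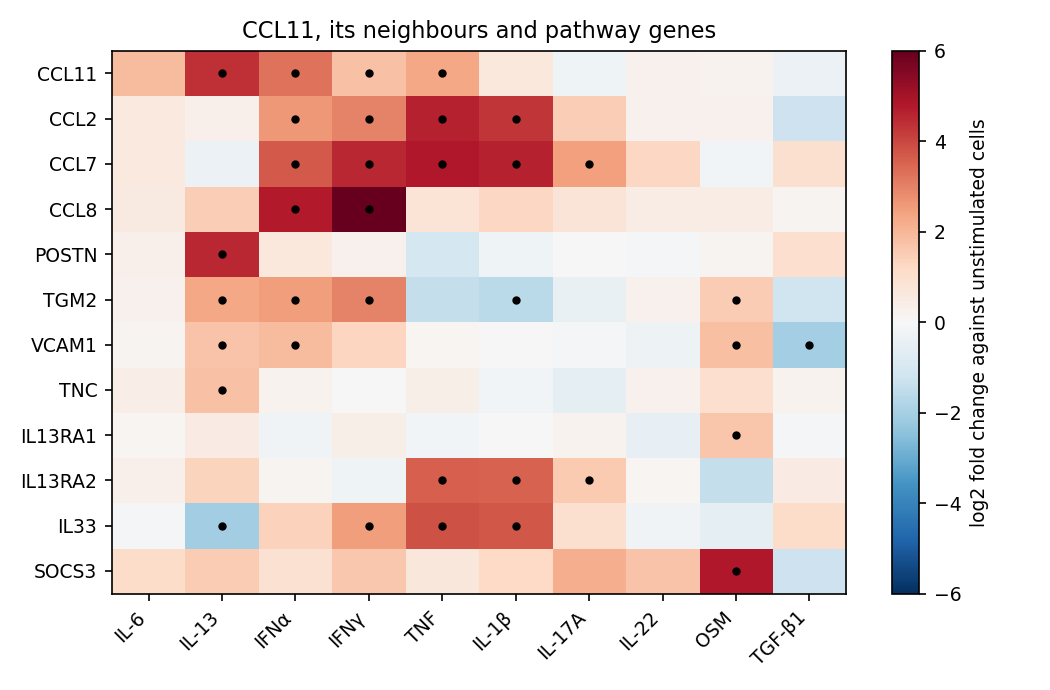
Fitted log2 fold change against unstimulated cells (colour) of CCL11, its neighbours CCL2, CCL7 and CCL8, and genes of the IL-13 and IL-6 pathways, for each cytokine. Black dots mark calls, no dot is drawn for CCL11 with IL-6, which was not tested, and the colour scale ends at 6, so that CCL8 with IFNγ (6.26) is drawn at its end.

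The receptors and signalling genes of IL-4 and IL-13 were called in 7 of 90 pairs of gene and cytokine, where 1.94% of all such pairs over the tested genes were called in either direction, and 1 of these calls was with IL-13. Of 15 listed genes 9 had enough counts. IL13RA2 rose from 98.8 ± 39.5 CPM to 1171.4 ± 245.8 CPM with TNF (log2 fold change 3.57, SE 0.46, adjusted p = 1.6e-07) and to 1147.1 ± 232.6 CPM with IL-1β (3.54, SE 0.46, adjusted p = 2.29e-07), and with IL-17A it was called at 1.59 (adjusted p = 0.0478), a call lost in 6 of 8 fits that left out 1 library. IL13RA2 was higher in both replicates 3 and 4 than in replicates 1 and 2 in 8 of the 11 groups, those of TNF, IL-1β and unstimulated cells among them.

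IL13RA1, the signalling chain, rose with OSM (1.68, SE 0.36, adjusted p = 0.00243), where 0.536% of genes were called higher. It fell to 1.49, under the fold threshold, without unstimulated replicate 4. STAT6 was called higher with IFNα (1.62, adjusted p = 0.0483) and JAK2 with IFNγ (1.88, adjusted p = 0.00359), and the STAT6 call was lost in 6 of 8 fits without 1 library. With IL-13 itself, IL4R was at 13.8 ± 2.65 CPM against 8.65 ± 4.23 CPM (adjusted p = 0.557) and IL13RA2 at 248.1 ± 149.7 CPM (adjusted p = 0.0758). IRS2, an adaptor used by IL-4Rα, was called lower (-2.22, adjusted p = 0.0456), where 1.2% of genes were, but not in 5 of 8 fits without 1 library.

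Of 18 listed response genes of IL-13 and STAT6, 6 had enough counts. Over all 10 cytokines they were called in 17 of 60 pairs of gene and cytokine, beside 1.94% of the pairs over all tested genes. With IL-13, where 0.273% of tested genes were called higher, 4 of these 6 genes rose, as CCL11 did. The list median with IL-13 was 1.73 on the log2 scale, against -0.05 over all tested genes. POSTN rose from 365.9 ± 76.0 to 8329.5 ± 2558.2 CPM (4.51, SE 0.22, adjusted p = 3.66e-20). TGM2, a transglutaminase, reached 253.8 ± 101.8 CPM (2.32), TNC, the matrix protein tenascin C, 983.6 ± 127.3 CPM (1.75), and VCAM1, an adhesion molecule that eosinophils bind, 177.2 ± 13.2 CPM (1.72), with adjusted p-values of 2.56e-09, 7.67e-06 and 6.23e-05.

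TGM2 and VCAM1 were not limited to IL-13. Both also rose with IFNα (2.49 and 1.88, adjusted p = 3.18e-11 and 3.52e-06), and with OSM (1.53 and 1.80, adjusted p = 1.63e-05 and 2.86e-05), where CCL11 overlapped with unstimulated cells. TGM2 was highest with IFNγ (2.96, adjusted p = 3.85e-13) and fell with IL-1β (-1.63, adjusted p = 1.42e-05), and VCAM1 fell with TGF-β1 (-2.04, adjusted p = 5.67e-05). The TGM2 calls with OSM and IL-1β were lost in 2 and 1 of 8 fits without 1 library. POSTN stood at 561.1 ± 121.0 CPM with IFNα and was lower with TNF, at 175.3 ± 47.8 CPM, by a difference under the fold threshold (-1.06, adjusted p = 0.000117).

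The IL-6 receptor chains and the response genes of STAT3 described the libraries in which CCL11 was chosen. Since CCL11 was the only gene called with IL-6, no gene of these lists could be called there, and their values are descriptions. IL6R, the ligand-binding chain, had too few counts to be tested and reached at most 10 in any library, whereas IL6ST, the shared chain, was at 712.7 ± 248.0 CPM at rest. The median log2 difference with IL-6 was 0.03 over 11 tested receptor and signalling genes and 0.15 over 12 tested STAT3 response genes, beside 0.00 over all genes. Over all 10 cytokines the first list was called in 5 of 110 pairs of gene and cytokine and the second in 9 of 120, beside 1.94% of the pairs over all tested genes.

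SOCS3, a feedback inhibitor and the usual early target of gp130 signalling, was at 0.57, 1.31, 2.53 and 5.43 CPM with IL-6 and between 0 and 2.11 CPM in unstimulated cells. The groups overlapped and most of these values lay at a few counts. With OSM, which uses the same IL6ST chain with OSMR, SOCS3 was at 34.7, 29.1, 28.7 and 42.1 CPM, above every IL-6 library (4.81 against unstimulated cells, SE 0.86, adjusted p = 0.00022), while CCL11 with OSM stayed within 75.3 to 100.5 CPM. POSTN with IL-6 was at 456.4 ± 54.2 CPM, a log2 difference of 0.32 (SE 0.19), against 4.51 with IL-13.

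**Figure D4:**
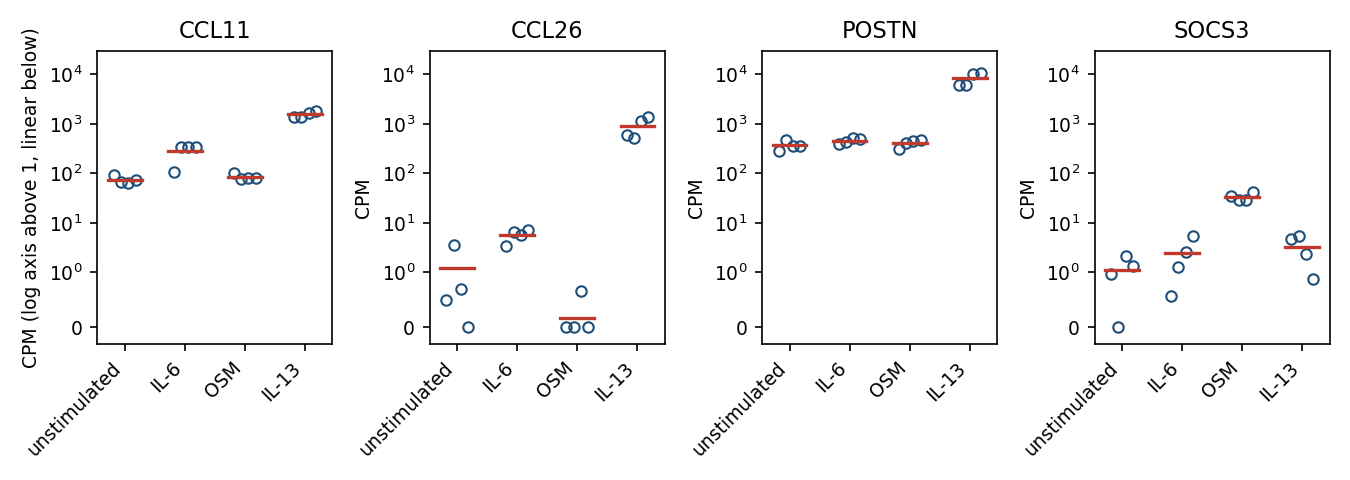
CCL11, CCL26, POSTN and SOCS3 in the unstimulated, IL-6, OSM and IL-13 libraries, in CPM on axes that are logarithmic above 1 and linear below (circles, replicates 1 to 4 from left to right; red line, group mean). SOCS3 is highest with OSM (28.7 to 42.1 CPM), where CCL11 stays near rest, and POSTN is highest with IL-13 (6071.4 to 10767.0 CPM), where CCL11 and CCL26 are highest too.

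Over the 11 group means of log2 CPM, CCL11 and CCL26 had a Pearson's r of 0.76 with each other, and 0.53 over the 10 groups without IL-13. The groups share the line and the medium, CCL26 lay near the floor in most of them, and the values are a description. The 5 genes most like CCL11 among 9508 were AP3S1 (r = 0.88), CFAP300 (0.87), IDNK (0.87), MRPL55 (0.86) and ERCC6 (0.86). Their changes were far smaller than that of CCL11, as AP3S1 had a mean of 246.7 CPM with IL-13 and 164.4 CPM at rest.

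The 5 genes most like CCL26 were POSTN (r = 0.95), SORD (0.89), SOX11 (0.89), PICALM (0.88) and SRI (0.87). Without the IL-13 group these fell to 0.58, 0.38, 0.10, 0.38 and 0.38, so their likeness to CCL26 rested on that group. SOX11, a developmental transcription factor, was at 225.0 ± 5.37 CPM with IL-13 and 16.7 ± 4.90 CPM at rest.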

How the data were processed

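Bulk RNA-seq of 44 Ccd18-Co libraries was analysed from the gene-level estimated counts deposited by the authors, whose processing notes name FastQC 0.11.9, MultiQC 1.14, kallisto 0.48.0 and the build hg38; the annotation release is not given in the sources used here. Of the values, 5.73% were not whole and were rounded. Related chemokine genes can share reads that kallisto divides.

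The members and lists were chosen with earlier results of these data known. Genes passing edgeR's expression filter were fitted in 1 quasi-likelihood model with 11 groups (R 4.3.3, edgeR 4.0.16, TMM scaling), and p-values were adjusted by Benjamini-Hochberg over 9513 genes. Values per library are CPM on effective library sizes. Group means of 3 counts or fewer were treated as under the floor. Intervals on pooled counts and floors (95%) cover counting error only. The fit was tested on simulated counts. No 2 libraries were identical, and replicates differed by more than sampling noise (chi-square per degree of freedom of at least 3.21 in 66 pairs). Genes were named where a list gene was called, with receptors, STAT genes, SOCS3, CCL24, CCR3 and POSTN named regardless, and for each eotaxin the 5 genes of most similar pattern (prior count 2). Genes lie on GENCODE release 44 coordinates. Alternatives were DESeq2 1.42.0, its size factors, 2 other filters, fits of only the groups compared, a replicate block, other fold thresholds and leaving out each library. Some genes and sequences are not reported here.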

Additional observations from a re-analysis of the deposited data

Results flagged for a closer look

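CCL11 was at 109.0 CPM in IL-6 replicate 1 and between 333.5 and 343.3 CPM in the other 3 IL-6 libraries, so the gap took up most of the group's range. CCL26 was at 0.667 CPM, a single count, in OSM replicate 3 and at 0 in the other 3 OSM libraries. Both were marked by Dixon's test at the 95% level for groups of 4. For CCL26 with OSM the mark says nothing, since any single count beside 3 libraries at 0 is marked. Of 21 groups tested 2 were marked, and chance alone marks about 1 in 20, or 1.05 here, a figure that does not hold for such ties. The cause of the lower IL-6 library was not tested.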

How the results depend on the processing

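Of 721 values recomputed under an alternative, 692 kept their direction and their side of the threshold, moved by less than the replicate spread or, for counts of calls, stayed within 1.5 times. CCL11 with IL-13, IFNα, TNF and IFNγ kept its call in every alternative run. The fits of replicates 1 and 2 alone, of replicates 3 and 4 alone and with these pairs of replicates as a model term were chosen after seeing the data. In replicates 3 and 4 alone CCL11 with TGF-β1 turned to 0.18 (adjusted p = 0.897), CCL11 between IFNα and IFNγ reached 1.54, CCL26 with IFNγ 3.70 (adjusted p = 0.014), CCL26 between the interferons 1.79 (adjusted p = 0.0203), and CCL26 with IL-6, with IL-13 and between OSM and IL-6 moved to 3.92, 11.51 and -3.83. In replicates 1 and 2 alone CCL26 with IFNα was 1.79 and no longer called, with IL-13 8.23, and between OSM and IL-6 -5.90. The pair as a term gave 1.62 for CCL26 between the interferons (adjusted p = 0.0478). Testing all genes with any count brought CCL26 with IFNγ (1.75, adjusted p = 0.0475) and between the interferons (1.63, adjusted p = 0.0012) past the threshold. The cause of these moves was not tested.

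The main fit did not pair libraries by replicate number, and whether the numbers mark shared handling was not tested. The deviations of same-numbered libraries from their group means correlated at -0.09 to 0.28 over 40 pairs, over 0.1 in 6 of them, and 15 correlated best with their own number. The highest values were those of replicate 1 with IL-6 (0.28), IFNα (0.28) and OSM (0.25). With the replicate number as a block, CCL26 between IFNα and IFNγ passed at 1.63 (adjusted p = 0.0392), and no other call on CCL11 or CCL26 changed.

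Leaving out each library in turn, CCL26 ranged from 1.90 to 3.56 with IL-6, from 9.20 to 10.86 with IL-13, from 1.08 to 2.25 between the interferons and from -6.07 to -4.20 between OSM and IL-6, and CCL11 between the interferons from 1.34 to 1.58. With no fold threshold the calls rose from 17 to 26 for IL-13 and STAT6 response genes, from 5 to 13 for the IL-6 receptor list and from 9 to 18 for STAT3 response genes. Of the 5 genes most like CCL11, 2 stayed with Spearman's rho, and of those most like CCL26, 2 stayed with a prior count of 0.5 and 0 with Spearman's rho.

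CCL26 had 7 counts over the 4 unstimulated libraries, which limits the precision of each of its differences from rest.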

Other observations

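Genes that act with eotaxins on eosinophils were called in 16 of 50 pairs of gene and cytokine, beside 1.94% of the pairs over all tested genes. With TNF 4 of 5 tested genes were called higher (1.85% of all genes), with IL-1β 3 were (1.47%), and with IFNγ 2 were higher (2.4%) and TSLP was lower. Of 13 listed genes for eosinophil survival, adhesion and alarmin function 5 had enough counts. IL33, an alarmin that drives type 2 immunity, rose with TNF from 138.4 ± 42.7 to 1939.6 ± 340.9 CPM (log2 fold change 3.81, SE 0.33, adjusted p = 7.31e-12, edgeR quasi-likelihood test, n = 4), with IL-1β (3.72) and with IFNγ (2.51). With IL-13, where CCL11 and CCL26 were highest, IL33 fell by 2.09 on the log2 scale to 32.3 ± 11.4 CPM (SE 0.34, adjusted p = 3.75e-05), and this call held without any 1 library.

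TSLP, an epithelial and stromal alarmin, rose with TNF to 125.7 ± 47.9 CPM (2.69, adjusted p = 2.89e-05) and fell by 2.51 with IFNγ (adjusted p = 0.00168), from 19.6 ± 9.59 CPM at rest. CSF2, the eosinophil survival factor GM-CSF, had 4 counts over the 4 unstimulated libraries, 138 with TNF and 369 with IL-1β. ICAM1 had 0 counts at rest, 153 with TNF and 152 with IFNγ. Its calls with IL-1β and IFNα were lost in 2 and 3 of 8 fits without 1 library.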
